A study of Mus musculus with 25 samples.

Results

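Induced hepatocytes (iHeps), cells converted from fibroblasts towards a liver fate, received a lentiviral shRNA against Cdx2 and were compared with iHeps that received a scramble shRNA. The members were the arrays whose titles name a Cdx2 knockdown or a scramble in iHeps, 8 of the 25 arrays of the series, with n = 4 arrays of Cdx2 shRNA and n = 4 arrays of scramble shRNA. The series used array profiles to set engineered cells against the native cells they were meant to resemble, with the CellNet platform named in its title. The shRNA arrays are labelled as iHeps with no line named; for the untransduced lines, the labels give E13.5 embryonic fibroblasts of C57BL/6J mice into which retroviruses carrying Foxa1 and Hnf4a had been introduced one after the other. Both groups then received a lentivirus, were selected with puromycin for 2 days and were kept in culture for a week before RNA was taken. Which iHep line was used, how many shRNAs were used and their sequences are not given in the labels. Untransduced iHeps (n = 3, labelled as independent lines) are cited below for scale. Colon and adult liver (n = 2 each) are cited for scale and also define 2 classes of genes. Fetal liver (E14.5) and colon-engrafted iHeps (12 days of engraftment), n = 2 each, entered only the shared spread of the fit behind those classes. The colon arrays hold crypts of 8-week-old Rag2gammac-/- mice and the liver arrays come from C57BL/6J mice, so tissue and strain cannot be told apart there. For adult liver the labels disagree on the age of the mice and on whether whole liver or isolated hepatocytes were used. Levels are RMA log2 values of a gene's probe set, so a difference of 1 is a 2-fold change in signal, and each gene's level is compared with itself only.

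Cdx2 is a homeobox transcription factor that sets up and maintains the intestinal epithelium, where it binds promoters and enhancers of absorptive cell genes, often beside Hnf4a. Hepatocytes do not normally use it. Foxa1 and Hnf4a, the factors used to make iHeps, act in both liver and gut endoderm, and Hnf4a drives genes of each. Comparing Cdx2 shRNA with scramble shRNA asks which parts of the iHep profile move when this intestinal regulator is lowered.

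The markers of the model were checked first. Of 8 iHep markers, 7 lay above the filter level, the 40th percentile of the array, in all 8 arrays. The exception was Foxa1, which passed it in 0 arrays; whether its probe set lies in the transgene is not known here. Fibroblast markers were present too, with 7 of 8 above that level in every array and only Thy1 in 0 arrays. Their summed level was 71.3 to 73.4 with Cdx2 shRNA and 70.0 to 71.3 with scramble shRNA. Of 6 leukocyte markers 3 (Ptprc, Laptm5 and Coro1a), and of 4 endothelial markers 3 (Pecam1, Cdh5 and Tek), passed it in 0 arrays. The 5 intestinal markers, Cdx2 itself among them, summed to 38.8 to 41.2 with Cdx2 shRNA and 41.7 to 43.1 with scramble shRNA. The targeted gene is thus part of that gap. Of the others, Vil1 and Lgals4 had lower means with Cdx2 shRNA, and Cdh17 (6.25 against 5.79) and Cdx1 higher ones. Cdx1 was above the filter level in 0 arrays. In cultures like these, fewer cells of one kind and less RNA per cell cannot be told apart.

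A further split ran through both groups. After removal of the group means, Cdx2 shRNA arrays 1 and 2 deviated together (r = 0.57 over genes), as did arrays 3 and 4 (0.64), and both of the first were opposed to both of the others (−0.87 to −0.73). Among scramble arrays the corresponding correlations were 0.12, 0.25 and −0.68 to −0.37. Deviations from a group mean sum to 0 over the arrays of that group, so negative correlations within a group are in part built in. Cell cycle genes were higher in replicates 1 and 2 than in replicates 3 and 4, by a median of 1.00 in Cdx2 shRNA arrays and 0.82 in scramble arrays. Interferon response genes were split in the Cdx2 shRNA arrays, by a median of 1.34, but not in the scramble arrays (0.03). The labels do not say what separates these replicates, so values of replicates 1 and 2 and of replicates 3 and 4 are given below where they differ. Nor do the labels say whether replicates were separate cultures, so the p-values measure the spread between these arrays.

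Cdx2 itself was lower in every array with its shRNA. Its level was 7.78, 8.02, 8.01 and 8.03 in Cdx2 shRNA arrays 1 to 4, against 9.14, 9.42, 8.96 and 8.98 in scramble arrays 1 to 4. No Cdx2 shRNA array reached the lowest scramble array. Cdx2 averaged 7.96 ± 0.12 with Cdx2 shRNA and 9.12 ± 0.21 with scramble shRNA (SD, n = 4 each), and fell by 1.16 ± 0.12 (log2 fold change ± SE, limma with Benjamini-Hochberg adjustment over all genes, adjusted p = 0.00397), or 2.24-fold. The second Cdx2 probe set averaged 6.69 with Cdx2 shRNA and 7.33 with scramble shRNA, with no overlap. The level left with Cdx2 shRNA stood between that of adult liver (5.88) and that of colon (11.66), and untransduced iHeps were at 9.49 ± 0.74 (SD, n = 3). The Cdx2 call held without each of the 8 arrays in turn. It was lost when replicate 2 was left out of both groups in the fit with the replicate number as a block (a change of −1.08, adjusted p = 0.0616).

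**Figure D1:**
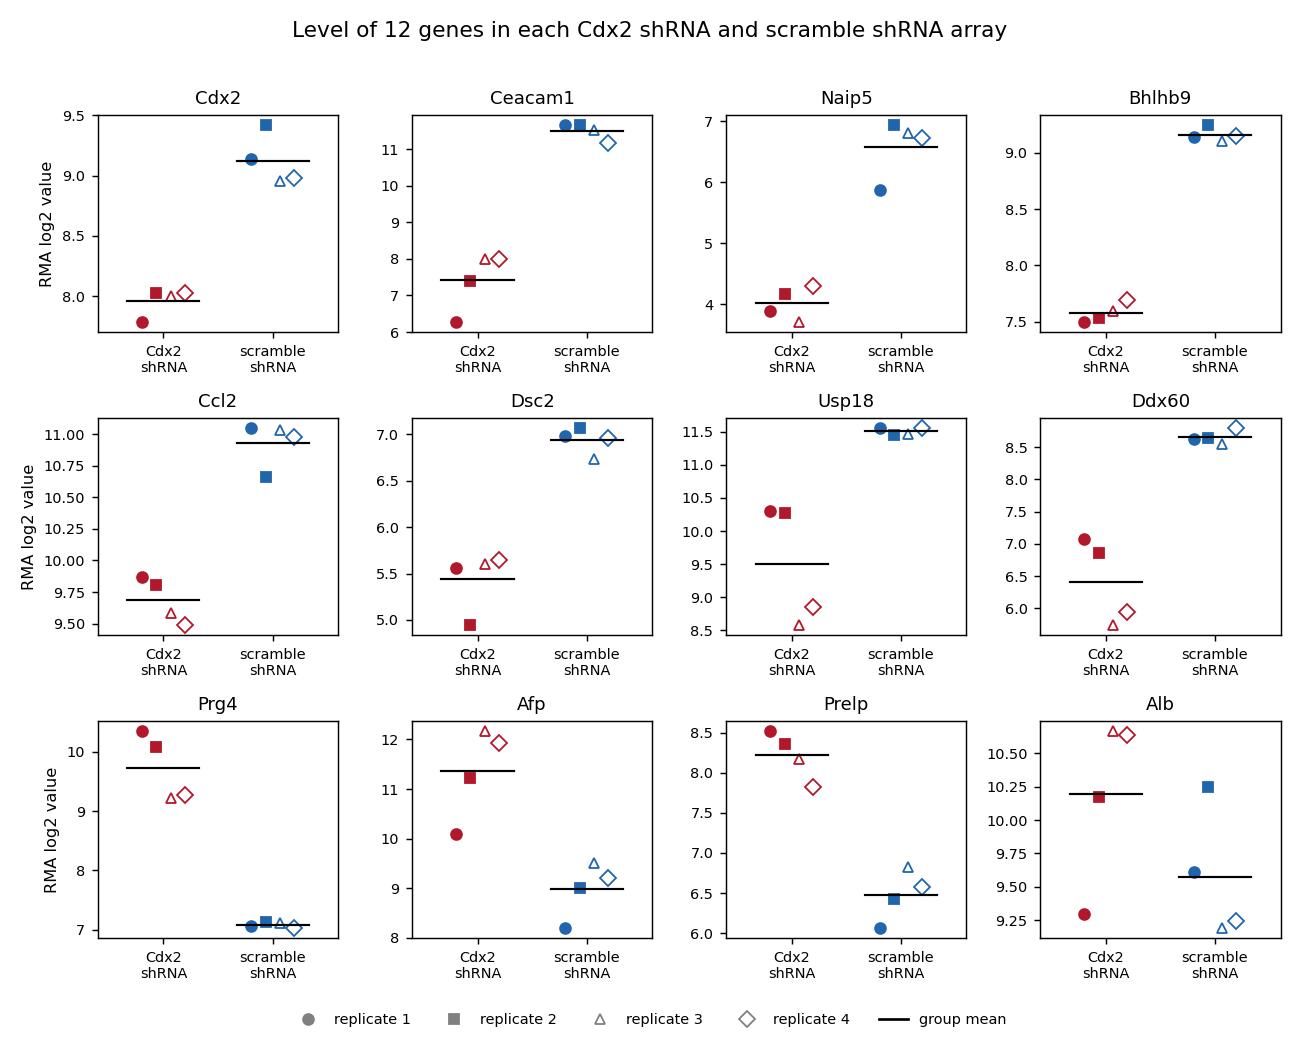
RMA log2 value (vertical axes, each panel on its own range that does not start at 0) of 12 genes in 4 Cdx2 shRNA arrays, left, and 4 scramble shRNA arrays, right; symbols mark the replicate number and lines the group means. The groups do not overlap in 11 panels, and Alb overlaps, with Cdx2 shRNA arrays 1 and 2 inside the scramble range and arrays 3 and 4 above it.

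Hnf4a, the nuclear receptor introduced to make these cells, was at 9.12, 9.07, 9.52 and 9.67 with Cdx2 shRNA, against 10.43, 10.48, 9.82 and 10.22 with scramble shRNA. The groups did not overlap, though Cdx2 shRNA array 4 came close to scramble array 3. Hnf4a fell by 0.89 ± 0.18 (adjusted p = 0.044). The call did not survive the replicate block (adjusted p = 0.0629), nor leaving out Cdx2 shRNA array 1, 2 or 3 or scramble array 1, 2 or 4 (0.0685 to 0.129). Its 4 probe sets ran from −1.04 to 0.06, with 2 lower without overlap. Whether they read the introduced Hnf4a, the cell's own gene or both is not known here. Of 18 liver regulators tested, 0 rose and only Hnf4a fell, with a list median of −0.02. Ppargc1a, a coactivator of fasting metabolism, differed by −1.11 ± 0.39 without overlap and did not pass (adjusted p = 0.207). Cebpa, a hepatocyte and adipocyte factor, was at 8.30 ± 0.15 with Cdx2 shRNA and at 8.36 ± 0.03 with scramble shRNA (SD, n = 4 each).

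Of 13650 genes tested, 229 fell (1.68%) and 73 rose (0.535%) with Cdx2 shRNA. The median over all genes was −0.0045. Genes that fell had a median change of −0.69 and genes that rose one of 0.70. Changes of at least 1 on the log2 scale were reached by 60 genes that fell and 16 that rose, and changes of at least 2 by 7 and 2. Every called gene moved the same way in the 4 same-numbered pairs, with no overlap between groups. Non-overlap alone was more common, at 950 lower genes (6.96%) and 535 higher genes (3.92%). With the replicate number as a block, 518 genes fell (3.79%) and 242 rose (1.77%), among them 220 of the 229 and 69 of the 73.

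The number of calls was lower in every fit that left out 1 array. Each such fit also holds fewer arrays, and the share of this in the drop was not tested. Genes that fell numbered 178 without Cdx2 shRNA array 1, 70 without array 2, 123 without array 3 and 161 without array 4. They numbered 106, 78, 95 and 44 without scramble arrays 1, 2, 3 and 4. The corresponding numbers of genes that rose were 46, 22, 45 and 42 without each Cdx2 shRNA array, and 24, 21, 27 and 15 without each scramble array. A gene was past the threshold in all 8 of these fits for 42 of the 229 that fell and 12 of the 73 that rose. Where a gene named below lost its call in some of them, those arrays, or their number, are given.

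**Figure D2:**
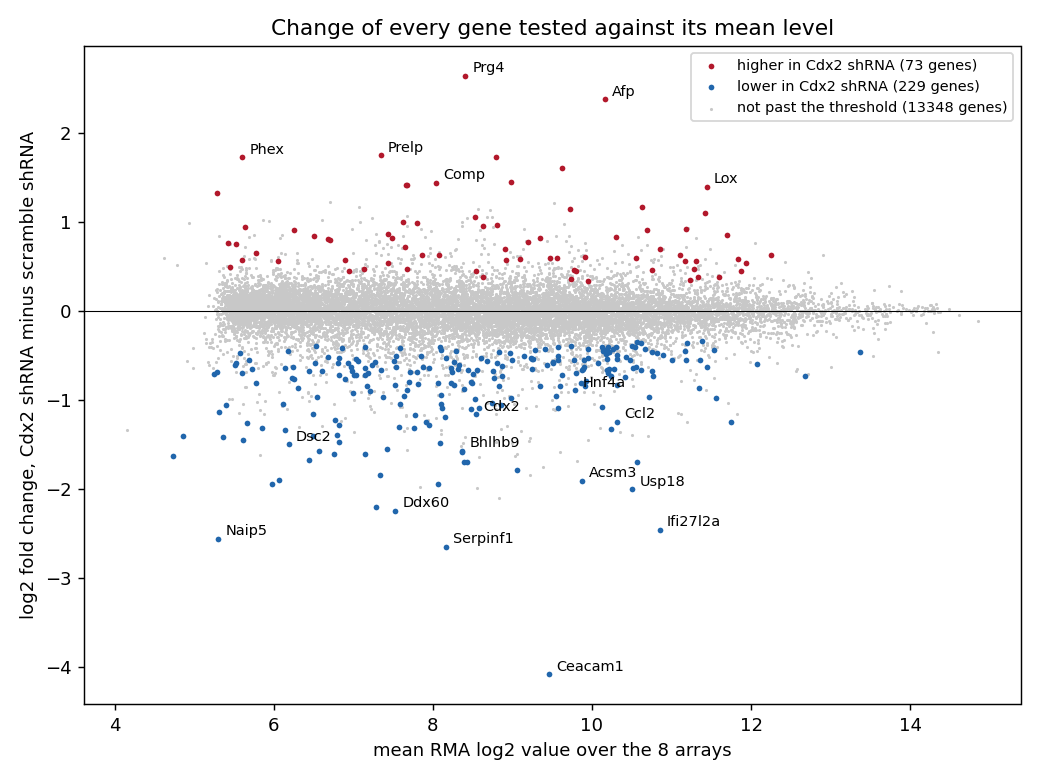
Log2 fold change, Cdx2 shRNA minus scramble shRNA (vertical axis), against the mean RMA log2 value over the 8 arrays (horizontal axis) for the 13650 genes tested; red points are the 73 genes that rose, blue points the 229 that fell and grey points the rest. Ceacam1 lies lowest of all, and Prg4 and Afp lie highest.

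Among the 24 intestinal regulators listed, 16 were tested and 1 rose, with a list median of −0.13 beside −0.0045 for all genes. Spdef, a factor of goblet cell maturation, was at 6.73, 6.97, 7.07 and 6.91 with Cdx2 shRNA, against 5.82, 6.17, 6.29 and 6.05 with scramble shRNA. All Cdx2 shRNA arrays lay above all scramble arrays. It rose by 0.84 ± 0.12 (adjusted p = 0.0124), a call lost without scramble array 4 (0.0565). Gfi1, a repressor that directs secretory cells, differed by 1.00 ± 0.28 with overlap (adjusted p = 0.126). Klf5, a factor of proliferating gut epithelium, differed by −0.38 ± 0.18 (adjusted p = 0.356). Cdx1, Hnf4g, Gata5, Atoh1, Neurog3, Ehf and Prdm1 lay under the filter in these cells and were not tested.

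Of 21 listed genes described elsewhere as Cdx2 targets in intestine, 13 were tested. Cdx1, Gucy2c, Lct, Heph, Car1, Gcg and Hnf4g lay under the filter. With scramble shRNA, the tested genes Isx (5.21), Muc2 (5.46) and Mep1a (5.59) were near the filter level, which limits any fall. Among the 13, 0 rose and 1 fell, with a median of 0.11. The one that fell was Dsc2, a desmosomal cadherin of epithelial cell contacts. It was at 5.56, 4.94, 5.60 and 5.65 with Cdx2 shRNA, against 6.98, 7.07, 6.74 and 6.96 with scramble shRNA. Every Cdx2 shRNA value lay at least 1 below every scramble value, and Dsc2 fell by 1.503 ± 0.161 (adjusted p = 0.00444), past the threshold without each array in turn. With the replicate block 3 of the list fell, the others being Lgals4 and Krt20. Lgals4, a galectin of the gut brush border, was at 10.59, 11.69, 11.35 and 11.14 with Cdx2 shRNA, against 11.95, 12.56, 12.28 and 12.13 with scramble shRNA. The groups did not overlap, and its difference of −1.04 ± 0.23 was just short of the threshold in the fit without the block (adjusted p = 0.0543, 0.0105 with the block). Krt20, a keratin of mature enterocytes, differed by −0.57 ± 0.14 (adjusted p = 0.0834, 0.0455 with the block). Vil1, the microvillus protein villin, and Cdh17, an intestinal cadherin, did not pass, at −0.63 ± 0.31 (adjusted p = 0.379) and 0.46 ± 0.17 (0.215).

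Ceacam1, a cell adhesion glycoprotein of the apical membrane of gut and bile canaliculi, showed the largest change of all genes tested. Its level was 6.26, 7.41, 8.01 and 8.00 with Cdx2 shRNA, against 11.67, 11.65, 11.53 and 11.17 with scramble shRNA. Even the highest Cdx2 shRNA array lay more than 3 below the lowest scramble array. Ceacam1 averaged 7.42 ± 0.82 with Cdx2 shRNA and 11.51 ± 0.23 with scramble shRNA (SD, n = 4 each), and fell by 4.09 ± 0.35 (adjusted p = 0.00243), or 17.0-fold. The call held without each array in turn. All 8 Ceacam1 probe sets were lower without overlap, from −4.09 to −0.44. The change given is from the set with the largest fall, of a type that can share probes with other transcripts. The set at −0.44 was above the filter level in 0 arrays, and another, above it in all 8, differed by −1.96. Ceacam2, a close relative of Ceacam1, differed by −0.01 ± 0.09. Ceacam1 was high in both native tissues, at 13.90 in colon and 13.44 in adult liver, and ranged widely in untransduced iHeps, at 11.25, 8.02 and 9.50 (9.59 ± 1.62, SD, n = 3). The first of these lay within the scramble range and the other 2 below it. Of the 30 colon absorptive genes listed, 21 were tested, and Slc26a3, Car1, Car4 and Aqp8 were among those under the filter. Among the 21, Ceacam1 alone fell and 0 rose, with a median of −0.02. With the block 4 fell, the further ones being Lgals4, Krt20 and Cdhr5, a brush border protocadherin at −0.90 (adjusted p = 0.0294 with the block, 0.0814 without).

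The median of the colon absorptive genes was −0.53 in replicates 1 and 2 and 0.16 in replicates 3 and 4. Ms4a10, a tetraspan membrane protein gene chosen here after its values were seen, was at 6.79, 6.98, 8.35 and 8.18 with Cdx2 shRNA, against 9.41, 9.17, 9.43 and 9.09 with scramble shRNA. It fell by 1.70 ± 0.34 (adjusted p = 0.0409), but only without Cdx2 shRNA array 3 or 4 did the call hold when an array was left out (0.0578 to 0.117 otherwise). The drop was deeper in replicates 1 and 2 than in replicates 3 and 4, as for Ceacam1.

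The core of the site that Cdx2 binds is TTTATGG, or TTTATNG in a looser form. Promoter windows from RefSeq (GRCm38.p6), 250 bases before to 50 after each gene's start, were available for 188 of the 229 genes that fell, 55 of the 73 that rose and 10971 of all tested. On either strand, TTTATGG was in 5 windows of genes that fell (2.66%), against 246 of all tested (2.24%) and 903 of the 32851 windows in the table (2.75%). The looser TTTATNG, which includes every TTTATGG, was in 20 windows of genes that fell (10.6%), 7 of genes that rose (12.7%), 953 of all tested (8.69%) and 3584 of all windows (10.9%). These shares lay close together, and a match is a description of letters, not a bound site. The promoters of Ceacam1, which fell most, and of Ms4a10, which holds a match, are shown as the 250 bases before the start on the strand of the gene, 5′ to 3′, with the match in capitals. The Ceacam1 window (chr7:25477626-25477875, minus strand) held no match to either form. The Ms4a10 window (chr19:10974701-10974950, minus strand) held 1, written here as CCATAAA since TTTATGG runs on the opposite strand.
Ceacam1: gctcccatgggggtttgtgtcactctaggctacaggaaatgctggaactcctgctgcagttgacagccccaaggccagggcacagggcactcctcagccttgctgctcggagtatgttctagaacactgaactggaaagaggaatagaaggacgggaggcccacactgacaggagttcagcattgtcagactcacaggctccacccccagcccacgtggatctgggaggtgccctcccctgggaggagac
Ms4a10: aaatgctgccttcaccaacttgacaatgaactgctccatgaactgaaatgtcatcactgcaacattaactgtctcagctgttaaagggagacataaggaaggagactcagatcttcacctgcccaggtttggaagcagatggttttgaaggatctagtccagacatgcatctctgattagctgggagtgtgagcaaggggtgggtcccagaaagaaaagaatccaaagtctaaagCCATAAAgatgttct

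Genes were also grouped by the native tissues, which the rule for choosing arrays did not use. Of 15262 genes tested there, 35.9% were higher and 24.8% lower in colon than in adult liver (limma, adjusted p under 0.05), and the classes below are genes past that threshold. Genes at least 3 higher on the log2 scale in colon than in adult liver made up 934 of those tested (6.84%). They supplied 30 of the 229 genes that fell (13.1%) and 6 of the 73 that rose (8.22%). Cdx2, the target of the shRNA, is counted among those that fell, here and at the other minimums below. Genes at least 3 higher in adult liver than in colon made up 535 (3.92%), and supplied 7 of those that fell (3.06%) and 9 of those that rose (12.3%). The median change over each class was small, at −0.06 for colon-high and 0.03 for liver-high genes. With the replicate block 73 colon-high genes fell and 22 rose, while 29 liver-high genes fell and 16 rose. These numbers moved with the arrays and the minimum used. Colon-high genes that fell numbered 32, 13, 19 and 26 without Cdx2 shRNA arrays 1 to 4, and 17, 10, 14 and 5 without scramble arrays 1 to 4. Colon-high genes that rose numbered 8, 3, 4 and 5, and 2, 3, 3 and 1, in the same fits. Liver-high genes that fell numbered 7, 2, 6 and 7 without Cdx2 shRNA arrays 1 to 4, and 5, 4, 4 and 1 without scramble arrays 1 to 4. Liver-high genes that rose numbered 9, 4, 7 and 5, and 5, 4, 4 and 4, in those fits. With a minimum difference of 2, colon-high genes were 57 of those that fell and 7 of those that rose (class of 2180 genes), and liver-high genes 16 and 12 (class of 1116). With a minimum of 4, colon-high genes were 19 (8.3%) and 4 (5.48%), from a class of 432 (3.16%). Liver-high genes were 3 (1.31%) and 5 (6.85%), from a class of 311 (2.28%).

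Colon-high genes that fell included genes of the absorptive surface as well as interferon-induced genes. Of the latter, 2 (Ifit1 and Mx1) belonged to the interferon list, while Ddx60, Ifi27l2a, Zbp1 and Tlr3, described below, did not. Ccl7 and Relb of the inflammatory list were also among the colon-high genes that fell. The count for this class thus overlaps the interferon and inflammatory results below. Tmigd1, an adhesion molecule of gut and kidney epithelium, was at 5.15, 5.51, 5.96 and 5.82 with Cdx2 shRNA, against 6.78, 7.07, 7.59 and 7.71 with scramble shRNA, and fell by 1.68 ± 0.24 (adjusted p = 0.0131; 0.0512 without scramble array 4). Scin, the actin-severing protein scinderin, fell by 1.58 ± 0.25 (adjusted p = 0.0193; 0.0591 to 0.0675 without scramble array 1 or 4). In both, every Cdx2 shRNA array was below every scramble array. Slc26a2, a sulfate transporter of colon epithelium, fell by 0.96 ± 0.15 (adjusted p = 0.0179), and B4galnt2, a glycosyltransferase of gut mucosa, by 0.96 ± 0.18 (0.0363). Calml4 and Myo7b, components that link brush border microvilli, fell by 0.65 ± 0.13 (adjusted p = 0.0451) and 0.56 ± 0.10 (0.0278). The call for Slc26a2 ended without Cdx2 shRNA array 2 or scramble array 2 or 4 (0.0587 to 0.0675). Those for B4galnt2, Calml4 and Myo7b ended in 6, 7 and 5 of the 8 fits that left out an array (0.0542 to 0.145). These genes were picked from the colon-high class after their values were seen. Dpep1 and Sprr1a were colon-high genes that went the other way. Sprr1a, a cornified envelope precursor, was at 6.113, 6.243, 6.138 and 5.973 with Cdx2 shRNA, against 5.168, 5.291, 5.223 and 5.002 with scramble shRNA, and rose by 0.95 ± 0.09 (adjusted p = 0.00346, held without each array in turn). Its scramble arrays lay under the filter level, so the background of the probe set limits that size.

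**Figure D3:**
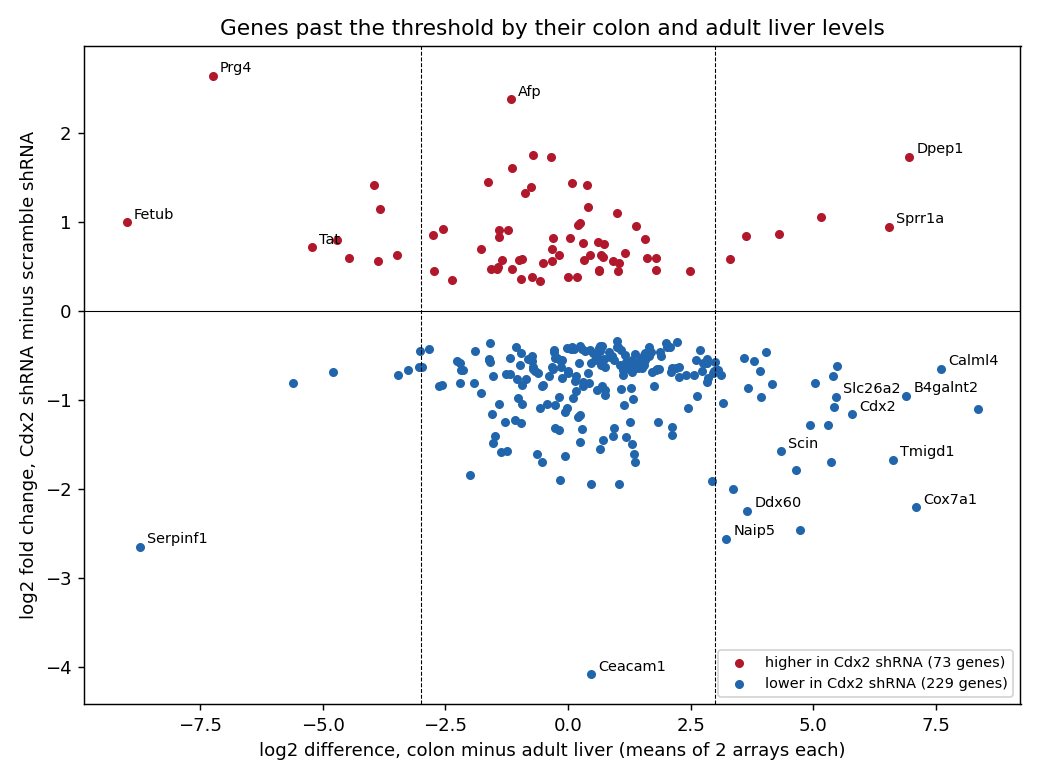
Log2 fold change, Cdx2 shRNA minus scramble shRNA (vertical axis), of the genes past the threshold against their log2 difference between colon and adult liver (horizontal axis, means of 2 arrays each); dashed lines mark differences of 3. To the right of the right-hand line lie 30 genes that fell and 6 that rose, and to the left of the left-hand line 7 that fell and 9 that rose.

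Liver genes did not move as one. Afp, the fetal plasma protein alpha-fetoprotein, was at 10.087, 11.228, 12.180 and 11.923 with Cdx2 shRNA, against 8.194, 9.003, 9.511 and 9.201 with scramble shRNA. It was higher by 1.89, 2.22, 2.67 and 2.72 in the 4 same-numbered pairs, and the groups did not overlap. Afp rose by 2.38 ± 0.45 (adjusted p = 0.0354, 0.00438 with the block), a call that held only without Cdx2 shRNA array 1 when an array was left out (0.0676 to 0.11 otherwise). Its 5 probe sets ran from 0.08 to 2.38. Alb, the main adult plasma protein albumin, was at 9.30, 10.17, 10.67 and 10.64 with Cdx2 shRNA, against 9.61, 10.25, 9.19 and 9.24 with scramble shRNA. The groups overlapped, and the difference of 0.62 ± 0.34 did not pass (adjusted p = 0.424). Ttr, the thyroid hormone carrier transthyretin, was at 8.36, 11.91, 12.43 and 12.29 with Cdx2 shRNA, against 11.80, 12.71, 12.67 and 12.45 with scramble shRNA. Cdx2 shRNA array 1 stood far below the other 7 arrays (difference −1.16 ± 0.81, adjusted p = 0.553). Of 29 plasma protein genes listed, 18 were tested, and most others, Fga and Plg among them, lay under the filter. Among the 18, Afp alone rose and 0 fell, with a median of 0.14. That median was −0.39 in replicates 1 and 2 and 0.59 in replicates 3 and 4. With the block 1 of the 18 fell.

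Of 32 hepatocyte metabolism genes listed, 11 were tested, and most others, among them Cps1, Arg1 and Pck1, lay under the filter. Those 11 behaved likewise, with 1 rising, 0 falling (1 with the block) and a median of 0.16. The one that rose was Tat, tyrosine aminotransferase, a gene switched on around birth. It was at 7.83, 7.84, 8.09 and 8.29 with Cdx2 shRNA, against 7.10, 7.35, 7.18 and 7.55 with scramble shRNA, and rose by 0.71 ± 0.14 (adjusted p = 0.0354; held without Cdx2 shRNA array 1 only, 0.0618 to 0.102 otherwise). Liver-high genes went both ways, with 9 that rose and 7 that fell, and those named here were picked after their values were seen. The largest fall among them was of Serpinf1, described below. Crot, a peroxisomal carnitine acyltransferase, fell by 0.67 ± 0.09 (adjusted p = 0.0112) and held without each array in turn. Cyp4v3, a cytochrome P450 fatty acid hydroxylase, fell by 0.81 ± 0.14 (adjusted p = 0.0284), held without Cdx2 shRNA array 1 or scramble array 3 only (0.0581 to 0.0998 otherwise). The 9 that rose held Tat, Prg4, Enho and Nid1 as well as the following 3. Fetub, the liver-secreted protease inhibitor fetuin-B, was at 8.18, 7.98, 8.30 and 8.02 with Cdx2 shRNA, against 7.24, 7.24, 7.08 and 6.94 with scramble shRNA. It rose by 0.99 ± 0.11 without overlap (adjusted p = 0.00444) and held without each array in turn. Cdo1, which starts cysteine breakdown, and Gjb1, the hepatocyte gap junction protein, rose by 1.15 ± 0.20 (adjusted p = 0.0275) and 0.79 ± 0.15 (0.0346). Their calls ended in 5 and 7 of the 8 fits that left out an array (0.0516 to 0.115).

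Interferon response genes were lower as a group. Interferons signal through receptors and STAT factors to switch on antiviral genes, whose promoters carry a shared response element. Of the 25 tested, 0 rose, 5 fell (Usp18, Ifit1, Mx1, Mx2 and Ddx58) and all 25 had a negative difference (6993 of 13650 over all genes). Their median was −0.98, beside −0.0045 for all genes, and 23 were lower without overlap (6.96% of all genes). With the replicate block 12 fell, without Ifit1. The median was −0.62 in replicates 1 and 2 and −1.68 in replicates 3 and 4. The mean level of the list was 9.23, 9.15, 8.02 and 8.00 in Cdx2 shRNA arrays 1 to 4, against 9.81, 9.70, 9.66 and 9.70 in scramble arrays. So the Cdx2 shRNA arrays were lower in each pair, and arrays 3 and 4 were lowest. Untransduced iHeps ranged from 7.23 to 9.43 on the same measure.

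The number of interferon genes called depended on the arrays kept. It was 10 without Cdx2 shRNA array 1, 4 without array 2 and 1 without scramble array 3, and 0 without any of the other 5 arrays (limma), where 20 to 23 were lower at an unadjusted p under 0.05. With all 8 arrays 23 of 25 were lower at an unadjusted p under 0.05. The share of all genes tested past that unadjusted cut is not given, here or for the lists below. Such counts therefore have no background beside them and are a description only.

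Usp18, a protease that removes the ubiquitin-like protein ISG15, was at 10.31, 10.27, 8.57 and 8.85 with Cdx2 shRNA, against 11.56, 11.45, 11.47 and 11.56 with scramble shRNA. The scramble arrays were nearly level and the Cdx2 shRNA arrays fell into 2 steps, both below them. Usp18 fell by 2.01 ± 0.38 (adjusted p = 0.0354), held without Cdx2 shRNA array 1 or 2 only (0.0528 to 0.117 otherwise). Ifit1, which binds foreign RNA caps, was at 10.29, 10.45, 9.09 and 9.04 with Cdx2 shRNA, against 11.09, 11.21, 11.80 and 11.60 with scramble shRNA. It fell by 1.70 ± 0.34 (adjusted p = 0.041, 0.061 with the block), held without Cdx2 shRNA array 1 or 2 only (0.0784 to 0.132 otherwise). Mx1 and Mx2, antiviral GTPases, and the RNA sensor Ddx58 fell by 0.68 ± 0.13, 0.67 ± 0.13 and 0.55 ± 0.12 (adjusted p = 0.0379, 0.0361 and 0.0468). Each of these calls ended in 6 or 7 of the 8 fits that left out an array (0.0538 to 0.128). Oasl2, an oligoadenylate synthetase-like protein, was at 8.79, 8.51, 6.65 and 6.28 with Cdx2 shRNA, against 9.67, 9.46, 9.64 and 9.42 with scramble shRNA. Despite this separation it did not pass (−1.99 ± 0.53, adjusted p = 0.101), and neither did Ifit3 (−1.69 ± 0.36, 0.0515) or Irf7, the regulator of interferon production (−1.49, 0.0791, 0.046 with the block).

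**Figure D4:**
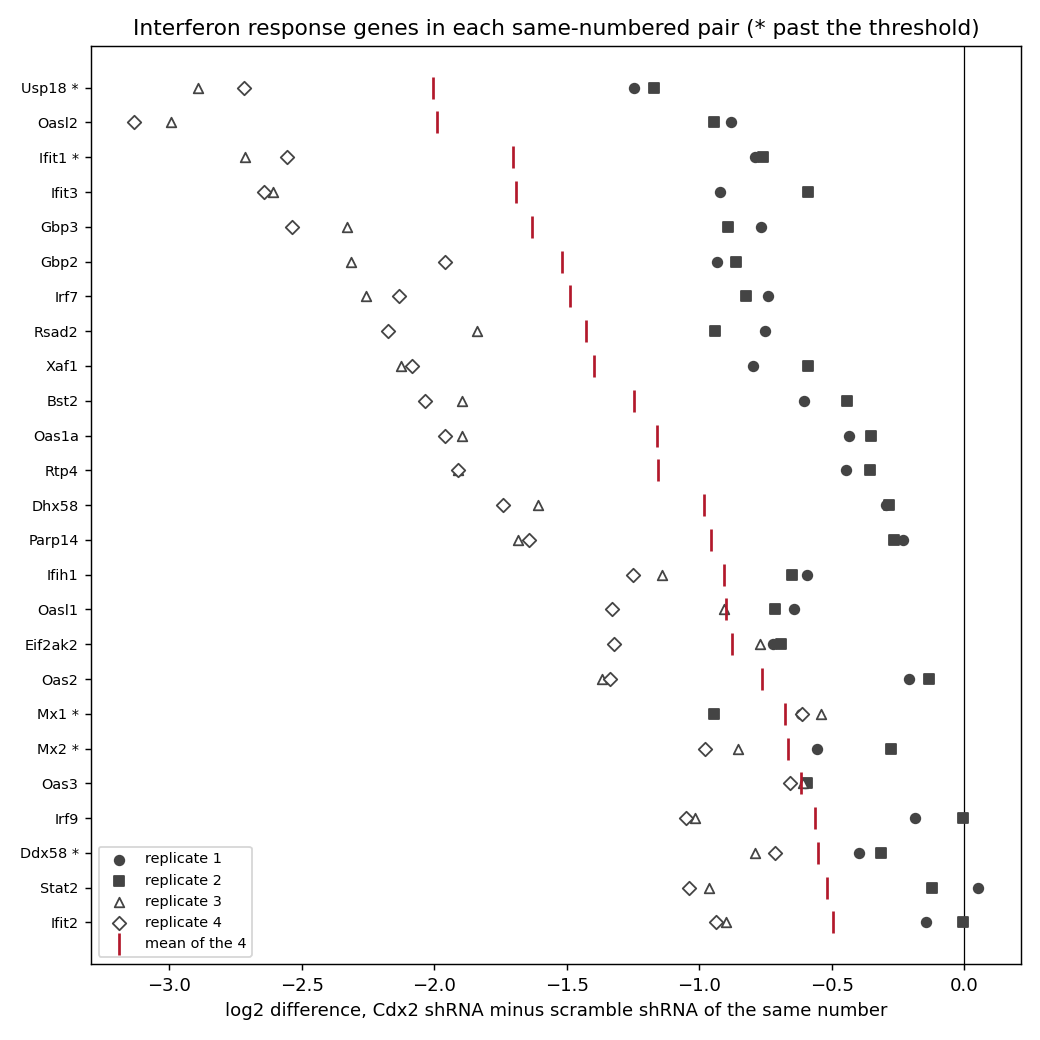
Log2 difference, Cdx2 shRNA minus scramble shRNA of the same replicate number (horizontal axis), for the 25 interferon response genes tested, ordered by their mean difference (red bar); filled symbols are replicates 1 and 2, open symbols replicates 3 and 4, and an asterisk marks the 5 genes that fell. In most genes replicates 3 and 4 lie further left than replicates 1 and 2, and almost every point is below 0.

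Interferon-induced genes outside the list were among the largest falls. Ddx60, an RNA helicase of antiviral defence, was at 7.08, 6.85, 5.74 and 5.94 with Cdx2 shRNA, against 8.62, 8.64, 8.55 and 8.80 with scramble shRNA. It fell by 2.25 ± 0.28 (adjusted p = 0.00683), and the call held without each array in turn. Ifi27l2a, a small interferon-induced membrane protein, was at 10.78, 10.57, 8.59 and 8.55 with Cdx2 shRNA, against 12.45, 12.07, 11.95 and 11.86 with scramble shRNA. Both genes showed the same steps in the Cdx2 shRNA arrays as Usp18. Ifi27l2a fell by 2.46 ± 0.51 (adjusted p = 0.046), held without Cdx2 shRNA array 1 only (0.0611 to 0.127 otherwise). Ifi47, an interferon-inducible GTPase, was at 7.68, 7.48, 6.49 and 6.73 with Cdx2 shRNA, against 8.69, 8.72, 9.29 and 9.48 with scramble shRNA, and fell by 1.95 ± 0.29 (adjusted p = 0.0166; 0.0508 to 0.0626 without scramble array 3 or 4). Zbp1, a sensor of Z-form nucleic acid, fell by 1.28 ± 0.20 (adjusted p = 0.0201), Tlr3, a receptor of double-stranded RNA, by 0.97 ± 0.20 (0.046), Trim21, a cytosolic antibody receptor, by 0.85 ± 0.18 (0.0481) and Shfl, an inhibitor of viral frameshifting, by 0.72 ± 0.11 (0.0163). Those 4 were named after their values were seen. Their calls ended in 4, 6, 7 and 1 of the 8 fits that left out an array (0.0516 to 0.154).

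A search for the core of the interferon response element, TTTC followed after any 2 bases by TTTC on either strand, was added after these genes were seen. It was in 12 of the 18 promoter windows available for the list (66.7%), and in 14 of 188 windows of genes that fell (7.45%), 0 of 55 of genes that rose, 375 of 10971 of all tested (3.42%) and 1131 of all 32851 windows (3.44%). The list was drawn up of genes known to respond to interferon, so the share within it describes the list. The promoters of Ifit1 (chr19:34640639-34640888, plus strand) and Ddx60 (chr8:61927837-61928086, plus strand), both of which fell, are shown as the 250 bases before the start, 5′ to 3′, from RefSeq (GRCm38.p6), with matches in capitals. Ifit1 held 2 on the strand shown, starting 104 and 85 bases before the start of the gene, and Ddx60 held 2 on the opposite strand, written as GAAACCGAAA, at 53 and 19 bases before it.
Ifit1: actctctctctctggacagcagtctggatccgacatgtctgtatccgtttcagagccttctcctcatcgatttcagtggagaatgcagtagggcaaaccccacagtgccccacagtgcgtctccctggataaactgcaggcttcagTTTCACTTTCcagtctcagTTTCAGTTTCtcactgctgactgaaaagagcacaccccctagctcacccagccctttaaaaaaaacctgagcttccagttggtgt
Ddx60: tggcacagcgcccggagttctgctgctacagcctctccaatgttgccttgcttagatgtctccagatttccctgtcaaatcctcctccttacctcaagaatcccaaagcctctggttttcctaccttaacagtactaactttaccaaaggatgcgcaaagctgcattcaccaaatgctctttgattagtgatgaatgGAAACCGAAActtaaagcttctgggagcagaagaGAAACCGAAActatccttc

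MHC class I and antigen processing genes, which interferons also raise, held 2 calls. Of 13 genes tested 0 rose, 2 fell and 12 had negative differences (6993 of 13650 over all genes). Their median was −0.59, and 9 were lower at an unadjusted p under 0.05 (limma). With the block 5 fell. The number that fell was 4, 1, 0 and 1 without Cdx2 shRNA arrays 1 to 4, and 0, 1, 0 and 0 without scramble arrays 1 to 4 (limma), with 7 to 9 lower at an unadjusted p under 0.05 where none was called. H2-D1, a classical class I heavy chain, was at 12.51, 12.55, 12.13 and 12.07 with Cdx2 shRNA, against 13.04, 13.08, 13.06 and 13.01 with scramble shRNA. The scramble arrays agree to within 0.1, and all Cdx2 shRNA arrays lay below them. H2-D1 fell by 0.73 ± 0.12 (adjusted p = 0.0242; 0.0519 to 0.0799 without Cdx2 shRNA array 3 or any scramble array), though class I heavy chains are near-identical copies that probe sets may not separate. Psmb10, an immunoproteasome subunit, fell by 0.59 ± 0.11 (adjusted p = 0.0374, 0.0506 with the block), held without Cdx2 shRNA array 1 or scramble array 2 only (0.0761 to 0.127 otherwise). Psmb8, another such subunit, was 1.46 ± 0.34 lower and did not pass (adjusted p = 0.0662, 0.0285 with the block). Psme1, a proteasome activator subunit named after its values were seen, fell by 0.63 ± 0.08 (adjusted p = 0.00643) and held without each array in turn.

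Inflammatory and acute response genes were mixed, with 0 of 21 rising, 4 falling (8 with the block) and a median of −0.11. The chemokines Ccl7 and Ccl2, which draw monocytes, were the clearest. Ccl7 was at 7.91, 7.86, 8.58 and 8.32 with Cdx2 shRNA, against 10.01, 9.57, 10.10 and 10.14 with scramble shRNA. Ccl2 was at 9.87, 9.81, 9.59 and 9.49 with Cdx2 shRNA, against 11.05, 10.66, 11.04 and 10.98 with scramble shRNA. The groups stood clear of each other in both genes, and the Cdx2 shRNA arrays showed no step between replicates 1 and 2 and replicates 3 and 4 of the size seen for Usp18. Ccl7 fell by 1.79 ± 0.19 (adjusted p = 0.00444) and Ccl2 by 1.25 ± 0.12 (0.00346), and both calls held without each array in turn. Birc3, an inhibitor of apoptosis induced by NF-κB, fell by 0.66 ± 0.09 (adjusted p = 0.0113; 0.054 without scramble array 4). Relb, an NF-κB subunit, fell by 0.57 ± 0.12 (adjusted p = 0.041), held without scramble array 1 only (0.0638 to 0.136 otherwise). Cxcl10, a chemokine of the interferon response, did not pass (−0.73, adjusted p = 0.313).

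Other large falls were of genes with varied functions. Serpinf1, the secreted factor PEDF and a liver-high gene here (13.68 in adult liver, 4.95 in colon), was at 5.92, 6.07, 7.80 and 7.56 with Cdx2 shRNA, against 9.43, 9.17, 9.96 and 9.43 with scramble shRNA, and fell by 2.66 ± 0.43 (adjusted p = 0.0212; 0.055 to 0.0715 without Cdx2 shRNA array 2 or any scramble array). Naip5, a cytosolic sensor of flagellin, was at 3.89, 4.18, 3.70 and 4.30 with Cdx2 shRNA, against 5.87, 6.94, 6.80 and 6.72 with scramble shRNA, and fell by 2.57 ± 0.24 (adjusted p = 0.00243). All 4 Cdx2 shRNA arrays lay under the filter level of 5.52 to 5.58, so the background of the probe set limits that size; the Naip genes are also near-identical copies. Acsm3, a mitochondrial acyl-CoA synthetase, was at 8.59, 8.85, 9.05 and 9.16 with Cdx2 shRNA, against 11.44, 11.13, 10.25 and 10.50 with scramble shRNA. It fell by 1.91 ± 0.25 (adjusted p = 0.0102), and the calls for Acsm3 and Naip5 held without each array in turn. Cox7a1, a cytochrome oxidase subunit of muscle, was at 5.71, 5.38, 6.68 and 6.94 with Cdx2 shRNA, against 8.90, 8.53, 8.10 and 8.01 with scramble shRNA, and fell by 2.21 ± 0.35 (adjusted p = 0.0212; 0.0588 to 0.0696 without scramble array 1, 2 or 4). Slc6a15, a neutral amino acid transporter, fell by 1.95 ± 0.29 (adjusted p = 0.0147; 0.0588 without scramble array 4), with 3 of 4 Cdx2 shRNA arrays under the filter level. Opcml, a cell adhesion molecule, and Hmgcll1, a lyase of ketone body synthesis, fell by 1.90 ± 0.38 (adjusted p = 0.041) and 1.85 ± 0.32 (0.0256). The Opcml call held without Cdx2 shRNA array 4 only (0.0505 to 0.13 otherwise), and that of Hmgcll1 ended without Cdx2 shRNA array 2 or any scramble array (0.054 to 0.0975).

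Among the 8 genes with the lowest p-values were 6 further genes that fell, beside Ceacam1 and Timp4. Bhlhb9 was at 7.50, 7.54, 7.60 and 7.69 with Cdx2 shRNA, against 9.14, 9.25, 9.10 and 9.15 with scramble shRNA, and fell by 1.58 ± 0.08 (adjusted p = 0.000112). Tspyl3 was at 5.84, 5.68, 5.75 and 5.90 with Cdx2 shRNA, against 7.21, 7.14, 7.12 and 7.35 with scramble shRNA, and fell by 1.41 ± 0.09 (adjusted p = 0.000407). The gap between groups was several times the spread within each, and no step separated replicates 1 and 2 from replicates 3 and 4. Pdlim4, an actin-associated PDZ and LIM protein, was at 7.31, 7.26, 7.79 and 7.83 with Cdx2 shRNA, against 9.24, 9.19, 9.14 and 9.40 with scramble shRNA, and fell by 1.69 ± 0.15 (adjusted p = 0.00243). Ei24, a p53-induced membrane protein of autophagy, was at 11.105, 10.996, 10.987 and 11.166 with Cdx2 shRNA, against 12.011, 11.935, 12.048 and 12.193 with scramble shRNA, and fell by 0.98 ± 0.09 (adjusted p = 0.00243). Itih5, a hyaluronan-binding matrix protein, was at 6.34, 5.62, 5.79 and 6.05 with Cdx2 shRNA, against 7.54, 7.65, 7.53 and 7.54 with scramble shRNA, and fell by 1.61 ± 0.15 (adjusted p = 0.00243). Ppp2r2c, a regulatory subunit of protein phosphatase 2A, fell by 1.34 ± 0.12 (adjusted p = 0.00243). The calls for all 6 of these genes held without each array in turn.

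Bhlhb9 lies on the X chromosome beside the Armcx genes, a mammalian cluster of armadillo repeat proteins, some of them mitochondrial, which was looked at after this value was seen. Of the 9 tested genes from Armcx1 to Bhlhb9 in RefSeq order, 3 fell and 6 did not pass. Armcx2 was at 9.89, 9.78, 9.97 and 9.94 with Cdx2 shRNA, against 10.62, 10.60, 10.92 and 10.78 with scramble shRNA, and fell by 0.84 ± 0.09 (adjusted p = 0.00474, held without each array in turn). Armcx1 fell by 0.89 ± 0.16 (adjusted p = 0.0287; 0.0528 to 0.109 without Cdx2 shRNA array 2 or 3 or scramble array 2, 3 or 4). The 6 others, Armcx6, Armcx3, Zmat1, Tmsb15a, Armcx5 and Gprasp1, differed by −0.19 to 0.25 with overlapping groups. The lower genes were thus interspersed with others that did not pass.

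Prg4, the joint lubricant lubricin, showed the largest rise of the genes tested. It was at 10.35, 10.07, 9.21 and 9.28 with Cdx2 shRNA, against 7.07, 7.14, 7.12 and 7.03 with scramble shRNA. The scramble arrays were nearly level and every Cdx2 shRNA array was at least 2 above them. Prg4 rose by 2.64 ± 0.24 (adjusted p = 0.00243), or 6.24-fold. Prelp, a collagen-binding leucine-rich proteoglycan, was at 8.53, 8.35, 8.17 and 7.82 with Cdx2 shRNA, against 6.06, 6.42, 6.83 and 6.57 with scramble shRNA, and rose by 1.75 ± 0.19 (adjusted p = 0.00445). Comp, cartilage oligomeric matrix protein, was at 8.86, 8.94, 8.48 and 8.76 with Cdx2 shRNA, against 7.08, 7.70, 7.13 and 7.36 with scramble shRNA, and rose by 1.44 ± 0.16 (adjusted p = 0.00444). Timp4, an inhibitor of matrix metalloproteinases, was at 8.44, 8.13, 8.44 and 8.50 with Cdx2 shRNA, against 6.89, 6.82, 7.13 and 7.01 with scramble shRNA, and rose by 1.42 ± 0.11 (adjusted p = 0.00175). The calls for these 4 genes held without each array in turn. Phex, an endopeptidase of mineralising tissue, rose by 1.72 ± 0.24 (adjusted p = 0.0114, held likewise), with scramble arrays at 4.28 to 5.43, under the filter level.

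Further rises lost their calls in some of the fits that left out 1 array. Adamts1, a secreted protease that cleaves proteoglycans, was at 10.95, 10.78, 9.85 and 10.14 with Cdx2 shRNA, against 8.64, 9.05, 8.63 and 8.99 with scramble shRNA, and rose by 1.604 ± 0.239 (adjusted p = 0.0164; 0.0501 to 0.0551 without Cdx2 shRNA array 2 or scramble array 1 or 4). Lox, which cross-links collagen and elastin, was at 12.33, 12.55, 11.56 and 12.12 with Cdx2 shRNA, against 10.35, 10.80, 10.53 and 11.31 with scramble shRNA, and rose by 1.39 ± 0.25 (adjusted p = 0.0309; held without Cdx2 shRNA array 3 or scramble array 4 only, 0.0581 to 0.09 otherwise). Both genes were highest in Cdx2 shRNA arrays 1 and 2. Dpep1, a membrane dipeptidase, was at 10.32, 10.06, 8.87 and 9.40 with Cdx2 shRNA, against 7.72, 7.75, 7.94 and 8.32 with scramble shRNA, and rose by 1.73 ± 0.30 (adjusted p = 0.026; 0.0629 to 0.0838 without Cdx2 shRNA array 2 or any scramble array). Grb10, an imprinted adaptor that restrains insulin receptor signalling, was at 9.67, 9.09, 9.99 and 10.09 with Cdx2 shRNA, against 8.06, 8.37, 8.28 and 8.36 with scramble shRNA, and rose by 1.44 ± 0.20 (adjusted p = 0.0124; 0.0512 without scramble array 4). Enho, which encodes the peptide adropin, rose by 1.41 ± 0.20 (adjusted p = 0.0135; 0.0565 without scramble array 4). Elmod1 rose by 1.32 ± 0.25 (adjusted p = 0.0354; held without Cdx2 shRNA array 3 or scramble array 1 only, 0.0675 to 0.11 otherwise). Its scramble arrays, at 5.22, 4.87, 4.30 and 4.13, lay under the filter level, so the background of the probe set limits that size.

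Across the 24 fibroblast and matrix genes tested, 3 rose (Lox, Sparc and Col5a2), 0 fell and 18 had positive differences (6657 of 13650 over all genes). Their median was 0.30, and 6 were higher without overlap (3.92% of all genes). With the block 5 rose and 1 fell. The median was 0.62 in replicates 1 and 2 and 0.03 in replicates 3 and 4. The larger change was thus in replicates 1 and 2, and for interferon genes in replicates 3 and 4. Within the Cdx2 shRNA arrays, both lists were higher in replicates 1 and 2, by medians of 0.60 (matrix) and 1.34 (interferon). The list's mean level was 10.42, 10.30, 9.92 and 9.96 in Cdx2 shRNA arrays, against 9.85, 9.79, 9.88 and 9.87 in scramble arrays. Cdx2 shRNA arrays 1 and 2 stood well above the scramble arrays, and arrays 3 and 4 only just. The summed fibroblast markers given above met at 71.3 in the 2 groups. Of those markers Col1a1, Pdgfra, Pdgfrb and Twist1 had higher means with Cdx2 shRNA and Col1a2, Col3a1 and Prrx1 lower ones, and their part in this result was not tested. The number that rose was 2 without Cdx2 shRNA array 3 or 4, 1 without scramble array 4 and 0 without any of the other 5 arrays (limma), where 6 to 9 were higher at an unadjusted p under 0.05.

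Sparc, a collagen-binding matricellular protein, was at 12.45, 12.41, 11.78 and 11.84 with Cdx2 shRNA, against 11.35, 11.18, 11.29 and 11.25 with scramble shRNA. It rose by 0.85 ± 0.16 (adjusted p = 0.0359), held without Cdx2 shRNA array 3 or 4 only (0.0572 to 0.118 otherwise). Col5a2, a fibrillar collagen chain, rose by 0.83 ± 0.16 (adjusted p = 0.0354), which ended without each of the 8 arrays (0.0517 to 0.0933). Col1a1 did not pass (0.92 ± 0.24, adjusted p = 0.092), and the proteoglycan gene Dcn was lower (−0.93 ± 0.29, adjusted p = 0.154, 0.00702 with the block). Single genes of the basement membrane were looked at after their values were seen, and went both ways. Col4a1, a type IV collagen chain, was at 11.65, 11.40, 10.92 and 10.86 with Cdx2 shRNA, against 9.81, 9.83, 10.33 and 10.21 with scramble shRNA, and rose by 1.16 ± 0.20 (adjusted p = 0.0266; 0.0748 to 0.0839 without Cdx2 shRNA array 2 or scramble array 1, 2 or 4). Its partner chain Col4a2 rose by 0.82 ± 0.17 (adjusted p = 0.0433, 0.0595 with the block), Nid1, a nidogen that joins laminin to that collagen, by 0.56 ± 0.09 (0.0243) and Nid2, the other nidogen, by 0.63 ± 0.12 (0.0382, 0.0517 with the block). Each of these 3 calls ended in 7 of the 8 fits that left out an array (0.0508 to 0.129). Agrn, the heparan sulfate proteoglycan agrin, was at 10.37, 10.44, 10.11 and 9.87 with Cdx2 shRNA, against 11.02, 10.77, 10.84 and 10.73 with scramble shRNA. It fell by 0.64 ± 0.14 (adjusted p = 0.0494), a call that ended without each of the 8 arrays (0.0572 to 0.127). Among laminin chains, Lamc1 differed by 0.54 ± 0.13 (adjusted p = 0.0739, 0.0273 with the block), Lamb1 by −0.21 ± 0.14 (0.528) and Lama5 by 0.01 ± 0.12 (0.979). Hspg2, which encodes perlecan, differed by 0.14 ± 0.13 (adjusted p = 0.688), so none of these 4 passed without the block.

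The remaining lists held few calls. Among 21 growth factor and MAPK response genes 0 rose and 2 fell, both feedback inhibitors of ERK signalling. Dusp4, a phosphatase of ERK, was at 7.10, 7.04, 7.65 and 7.81 with Cdx2 shRNA, against 8.20, 8.18, 8.23 and 8.28 with scramble shRNA, and fell by 0.82 ± 0.17 (adjusted p = 0.046; held without Cdx2 shRNA array 4 only, 0.0565 to 0.142 otherwise). Spry1, a Sprouty protein, was at 8.07, 7.94, 7.95 and 7.94 with Cdx2 shRNA, against 8.50, 8.51, 8.43 and 8.75 with scramble shRNA, and fell by 0.57 ± 0.09 (adjusted p = 0.0184; 0.0547 to 0.0611 without Cdx2 shRNA array 2 or scramble array 2 or 4). The list's median was −0.08, and 16 of its 21 genes had negative differences (6993 of 13650 over all genes). With the block 1 of the list rose and 4 fell. Among 13 goblet cell genes Spdef alone rose and 0 fell (1 with the block), and among 27 epithelial junction and keratin genes Dsc2 alone fell and 0 rose (2 fell with the block). Of 29 cell cycle genes 0 rose or fell (limma, 0 also at an unadjusted p under 0.05). Even so, 28 had positive differences (6657 of 13650 over all genes), with a median of 0.32. With the block 4 rose, among them the proliferation antigen gene Mki67 (0.50, adjusted p = 0.631, 0.0424 with the block). Of 23 cholesterol and fatty acid synthesis genes 0 passed (limma, 0 higher and 4 lower at an unadjusted p under 0.05), with a median of −0.56 in replicates 1 and 2 and 0.17 in replicates 3 and 4. In 20 HOX genes, which keep positional identity, 0 passed (limma, 0 higher and 4 lower at an unadjusted p under 0.05). In 18 p53 pathway genes 0 passed either (limma, 3 higher and 5 lower at an unadjusted p under 0.05), as in 16 intestinal stem cell and Wnt target genes (2 higher and 2 lower) and 19 apolipoprotein and lipid transport genes (4 higher and 3 lower). The lists of enteroendocrine, gastric, cholangiocyte, stress, TGF-beta, oxidative response, hypoxia, leukocyte and endothelial genes also held 0 calls (limma), with 0 to 4 higher and 0 to 3 lower at an unadjusted p under 0.05. With the block, the lists without a call had at most 2 calls in either direction, apart from the cell cycle list.

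**Figure D5:**
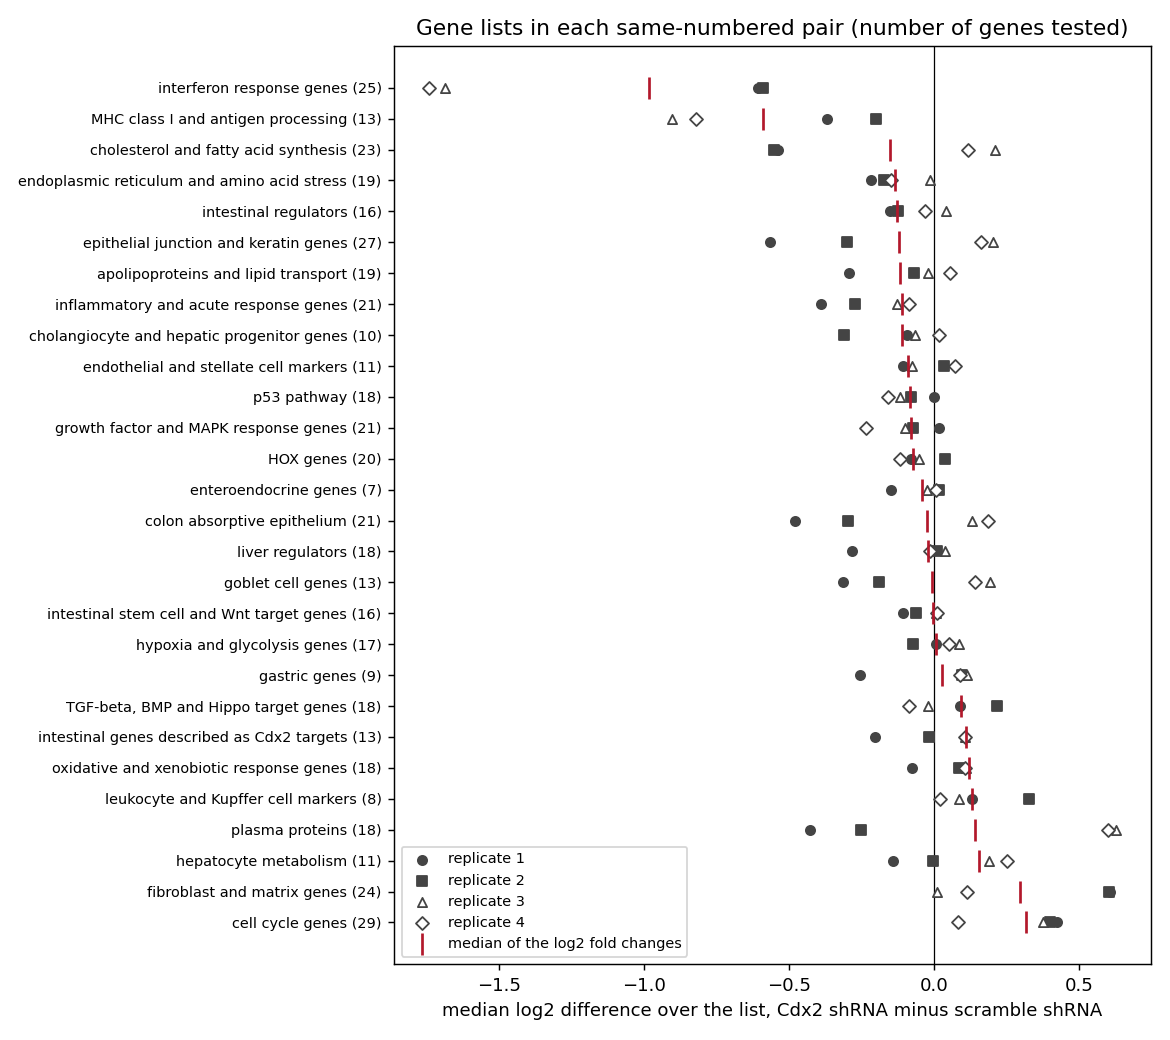
Median log2 difference over each gene list, Cdx2 shRNA minus scramble shRNA of the same replicate number (horizontal axis), with the number of genes tested in parentheses; filled symbols are replicates 1 and 2, open symbols replicates 3 and 4, and red bars the median of the log2 fold changes. The interferon list lies furthest left, at −0.61, −0.59, −1.69 and −1.74 in the 4 pairs, and plasma protein and cholesterol genes change sign between replicates 1 and 2 and replicates 3 and 4.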

How the data were processed

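RNA was measured on Affymetrix mouse expression arrays, 1 per sample. The authors deposited log2 values from RMA, per the submitters' processing notes; the RMA version is not given in the sources used here. Per the labels' protocols, 100 ng of total RNA went into amplification and biotin labelling. Precision is limited by the number of arrays.

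The platform annotation gave 1 symbol for 34945 of 45101 probe sets, several for 932, none for 9160 not listed and controls for 64. Each of 18193 genes took the probe set with the highest mean over 25 arrays, a choice for the 9010 genes with more than 1. Genes were tested if they exceeded the array's 40th percentile in at least 2 of the 8 arrays. Counts for a gene list cover only its tested members. The 2 groups were compared with limma 3.58.1 (lmFit and eBayes in R 4.3.3, 8 arrays, 6 residual degrees of freedom), two-sided, with Benjamini-Hochberg adjustment over all 13650 genes and a threshold of 0.05 with no minimum fold. Plots used matplotlib 3.10.9 (Python 3.11.15, pandas 2.3.3). On simulated data for this comparison (13650 genes, 50 changed at each size), 32% of changes of 0.5 were recovered, 86% of 1, 90% of 1.5 and 100% of 2 on the log2 scale, and 6.1% of calls were false. The simulated noise was independent between genes and arrays, without the split between replicates seen here. These shares may therefore not carry over to the real arrays.

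Same-numbered arrays deviated together, at correlations of 0.53, 0.32, 0.58 and 0.44 for replicates 1 to 4, and were treated as pairs in the replicate block on this hint from the data, which the labels do not state. Some arrays of other numbers correlated too. Cdx2 shRNA array 2 did so with scramble array 1 (0.41), and Cdx2 shRNA array 4 with scramble array 3 (0.35). The correlations therefore do not single out equal numbers as pairs from the split between replicates 1 and 2 and replicates 3 and 4. The members and the 28 gene lists were chosen with earlier results of these data known. Named genes were Cdx2, the 12 highest and 12 lowest changes past the threshold without overlap, the 8 lowest p-values, members of each list by size, and Ceacam1 and Alb; clone-style symbols were passed over. Other names are marked in the text as chosen after their values were seen. The colon and adult liver comparison came from a fit of 11 arrays with 1 shared spread. These were untransduced iHeps (n = 3) and fetal liver, adult liver, colon-engrafted iHeps and colon (n = 2 each). Promoters came from RefSeq tables of GRCm38.p6. Alternatives changed the filter, probe sets, normalization, variance model, minimum fold, arrays in the fit and the replicate block.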

Additional observations from a re-analysis of the deposited data

Results flagged for a closer look

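Each group of 4 arrays was screened for an array whose gap to its nearest neighbour took up most of the group's range (Dixon's test), over the genes named in the text. Of 198 groups screened, 6 held such an array, where chance flags about 1 in 20. Cdx2 in Cdx2 shRNA array 1 was at 7.78, below the other 3 Cdx2 shRNA arrays at 8.01 to 8.03, so the lowest level of the targeted gene was in that array. The same array held Ttr, transthyretin, at 8.36, against 11.91 to 12.43 in the other Cdx2 shRNA arrays. It also held the highest Spry1 among them, at 8.07 against 7.94 to 7.95. Dsc2 was at 4.94 in Cdx2 shRNA array 2, against 5.56 to 5.65 in the others. Among scramble arrays, Itih5 was at 7.65 in array 2, against 7.53 to 7.54 in the others, and Lamc1 at 9.42 in the same array, against 8.89 to 8.98. The Itih5 and Spry1 groups span little, so these gaps are small in size.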

How the results depend on the processing

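The counts moved most with the arrays kept. Genes that rose and fell numbered 19 and 54 with all 25 arrays in 1 model, 242 and 518 with the replicate block, and 16 and 60 with a minimum log2 change of 1. Leaving out 1 array gave 15 to 46 and 44 to 178, and leaving out same-numbered pair 1, 2, 3 or 4 with the block 30, 8, 25 and 24 that rose and 109, 22, 82 and 75 that fell. In settings added after seeing the data, replicates 1 and 2 against 3 and 4 as a covariate gave 350 and 718, replicates 1 and 2 only 282 and 536, and replicates 3 and 4 only 191 genes that rose. Interferon genes that fell numbered 12 with array weights, 12 with the block, 0 with 25 arrays (limma, 20 lower at an unadjusted p under 0.05), 0 to 10 without 1 array, 0 to 1 without a pair, 20 with the covariate, 12 and 24 in replicates 1 and 2 and replicates 3 and 4, and 2 with the minimum. Matrix genes that rose numbered 0 with 25 arrays (limma, 0 at an unadjusted p under 0.05), 5 with the block, 0 to 2 without 1 array, 0 to 1 without a pair, 7 with the covariate, 13 and 1 in those replicates, and 1 with the minimum. Colon-high and liver-high genes that fell, then colon-high and liver-high genes that rose, numbered 50, 13, 10 and 10 with array weights, 9, 1, 2 and 3 with 25 arrays, 73, 29, 22 and 16 with the block, and 14, 1, 2 and 3 with the minimum change. They numbered 112, 43, 27 and 33 with the covariate, 104, 37, 25 and 30 in replicates 1 and 2, and 61, 15, 44 and 32 in replicates 3 and 4. Leaving out 1 array gave 5 to 32, 1 to 7, 1 to 8 and 4 to 9, and leaving out a pair with the block 3 (pair 2), 11, 16 or 19, 0 (pair 2), 5 or 6, 2 to 4, and 1 (pair 2), 3 or 4. With a minimum tissue difference of 2 they numbered 57, 16, 7 and 12, and with one of 4, 19, 3, 4 and 5. Fewer arrays or other arrays were used in most of these; the cause of the other moves was not tested. Cdx2 fell under every alternative run except the block without pair 2 (−1.08, same direction). Ceacam2 changed sign at values near 0, running from −0.072 to 0.032 without 1 array (above 0 in 3 of the 8), with 0.019 and 0.023 without pair 1 or 2 and 0.087 in replicates 3 and 4 only, and Alb was at −0.20 in replicates 1 and 2 only. Lama5 ran from −0.072 to 0.075 without 1 array and was at −0.021, −0.011 and −0.030 without pair 2 or 4 and in replicates 1 and 2, and Hspg2 was at −0.030 without pair 2 and −0.032 in replicates 3 and 4. Where the report gives no blocked value beside a named gene, the block did not change its call. Signal near background limits the size of changes most for Naip5, Phex, Sprr1a and Elmod1, each with 4 arrays of one group under the filter level. It also bears on Slc6a15 and Krt20 (3 arrays), on Ppp2r2c, Opcml, Scin, Tmigd1 and Cdh17 (2), and on Cox7a1, Dsc2 and Dcn (1).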
